A study of Mus musculus with 2 samples.

Results

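Isolated Glis3 sites are called binding sites that stand alone on their chromosome: no other listed site centre lies within 500 kb, where the centre is the integer part of the mean of the interval's 2 ends. Of the 1343 sites in the deposited list, 333 (24.8%, exact Clopper-Pearson 95% interval 22.5 to 27.2) met this rule. For comparison, 636 sites had another site within 100 kb, and 374 had their nearest site between 100 and 500 kb away. The list came from chromatin immunoprecipitation and sequencing (ChIP-seq) of αTC1-9 cells, an established mouse line labelled as pancreatic alpha cells. The cells expressed Glis3 with a 3xFlag tag and mCherry, a FLAG affinity gel pulled the fusion down, and input DNA of the same cells, with no precipitation, was the control. There was 1 ChIP library and 1 input library, and the samples held no FLAG precipitate of cells that lack the fusion.

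Glis3 is a Krüppel-like zinc finger transcription factor of the Gli-similar family. It is known as an activator of the insulin gene in beta cells, and loss of its function causes neonatal diabetes. Alpha cells normally make glucagon and keep the insulin gene silent, and the series asked where Glis3 binds when it is supplied to such a line. Transcription factor sites often lie in groups around the regulatory regions of a gene, and sites that lie alone are the other end of that range. Isolation here measures the distance to other called sites, not to genes.

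The members were chosen from the positions of sites called on this ChIP library against this input. Their tags, folds and widths come from the same pair of libraries, so these values are given as a description, without a test. With single libraries there is also no replicate error. The intervals cover counting error only and treat sites as independent. The caller used 19551047 of 20037091 mapped ChIP tags and compared them with 18603239 input tags. A site's tags are the ChIP reads counted for it, and its fold is the ChIP-to-input ratio given by the caller. The tag file names recorded in the header contain the word Liver, which does not match the labelled cell line, and the site list does not settle the origin of the chromatin. No mm9 sequence or gene annotation was used, so sites are named by position and no sequence or nearby gene is given.

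Most isolated sites stood far beyond the 500 kb limit. The distance to the nearest other site had a median of 1293 kb (quartiles 754 and 2999 kb), with a lowest value of 503 kb and a highest of 37802 kb. For 206 of the 333 members the nearest site was more than 1 Mb away, for 123 more than 2 Mb, for 38 more than 5 Mb and for 13 more than 10 Mb. Among the sites with a neighbour within 100 kb, the median distance was 16.1 kb (quartiles 2.50 and 43.4 kb). The members just inside the limit were a pair on chromosome 2, at 120911411 to 120911451 and 121414591 to 121414631, which are each other's nearest site at 503 kb, with 40 and 22 tags. Next came a site on chromosome 7 at 87239611 to 87239671, with 19 tags and its nearest site 504 kb away. Just outside the limit were a site on chromosome 17 at 26733411 to 26733451, with 40 tags and a neighbour at 498 kb, and a pair on chromosome 1, at 177315831 to 177316011 and 177810691 to 177810731, 495 kb apart, with 29 and 19 tags. These named sites spanned 19 to 40 tags on either side of the limit, and are too few to compare the sides.

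The gaps on the 2 sides of a member were unequal. The 306 members with a listed site on both sides had a median of 1.22 Mb to the nearer site and 4.24 Mb to the farther (quartiles of the farther 1912 and 8936 kb), and 182 of them had more than 1 Mb on both sides. The other 27 members were the first or last site of their chromosome, a position held by 40 sites in all, and had a neighbour on 1 side only. Isolated sites often lay next to one another: for 192 members (57.7%) the nearest site was itself isolated, for 81 (24.3%) it was a site with a neighbour between 100 and 500 kb, and for 60 (18%) it was a site with a neighbour within 100 kb. Because members are defined by their gaps, this is a description of how the list is laid out.

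**Figure D1:**
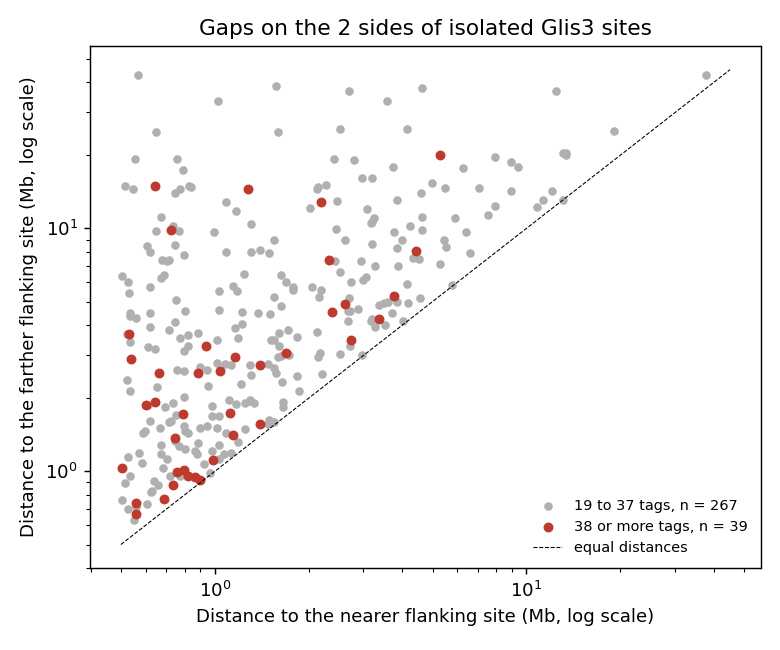
Distance from each of the 306 isolated sites with a site on both sides to its nearer (horizontal) and farther (vertical) flanking site, in Mb on log scales, with the 39 sites of 38 or more tags in red and the dashed line at equal distances. The median is 1.22 Mb on the nearer and 4.24 Mb on the farther side, and all points lie above 0.5 Mb on both axes.

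Of the 333 members, 263 stood in unbroken runs of at least 2 isolated sites, and 191 in runs of at least 3. The longest run held 8 sites on chromosome 10, from 21164311 to 62114171, a stretch of 40.9 Mb with no other listed site in it. A second run of 7 lay on the same chromosome from 83111571 to 112365971 (29.3 Mb). A run of 7 on chromosome 3 covered 85.4 Mb, from 8767591 to 94176931, whereas runs of 7 on chromosome 4 (107502431 to 119088171) and chromosome 8 (72149211 to 83783611) took only 11.6 Mb each. Across the genome, 582 of the 1323 gaps between successive sites were longer than 500 kb, and these gaps made up 95.9% of the 2401 Mb between the first and last sites of the chromosomes. Isolated sites are bounded by such gaps on every side that holds a neighbour. Each of the other sites adjoined at least 1 shorter gap, so that the rest of the list was packed into the small remainder.

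The most remote member was on chromosome X at 53985391 to 53985431, with 37.8 Mb to the nearest site on one side and 42.8 Mb on the other. It had 25 tags (exact Poisson 95% interval 16.2 to 36.9), 23.8-fold over input. The next was on chromosome 12 at 55414251 to 55414351, 19.1 Mb from its nearest site, also with 25 tags. The other 3 of the 5 most remote members were on chromosome 3. The sites at 68809331 to 68809391 (22 tags) and 55379951 to 55379991 (28 tags) were each other's nearest site at 13.4 Mb, and the first site of the chromosome, at 8767591 to 8767631 (20 tags), had 13.1 Mb to its neighbour. None of the 5 reached 38 tags, which 12.9% of all members and 16.5% of all listed sites did. With 5 sites, a count of none does not set them apart.

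Isolated sites were spread more evenly over chromosomes than neighboured ones. A chromosome held between 6 members (chromosome 19) and 29 (chromosomes 4 and 6), with a median of 15, whereas sites with a neighbour within 100 kb ran from none on chromosome X to 90 on chromosome 11. The 5 chromosomes with the most members held 127 of them (38.1%), and the 5 with the most neighboured sites held 333 of 636 (52.4%). Per 10 Mb between the first and last site, members ran from 0.548 (chromosome X) to 2.0 (chromosomes 4 and 6), a 3.66-fold range. Neighboured sites reached 7.79 per 10 Mb on chromosome 11. The rule limits how many isolated sites can fit on a chromosome that is dense in sites, so part of this evenness is built in.

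**Figure D2:**
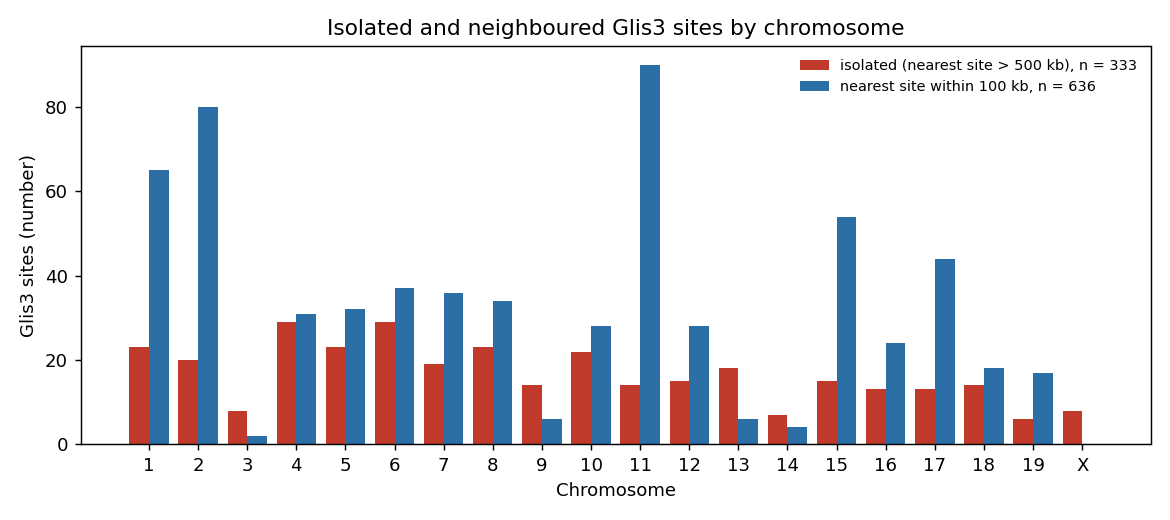
Number of isolated sites (red) and of sites with a neighbour within 100 kb (blue) on each chromosome, as bars from 0. Isolated sites run from 6 to 29 per chromosome and neighboured sites from 0 to 90.

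The share of a chromosome's sites that were isolated ran from 9.40% on chromosome 11 (14 of 149, exact interval 5.23 to 15.3) to 80% on chromosomes 3 and X (8 of 10 each, 44.4 to 97.5), with a median of 29.0% over the 20 chromosomes. Chromosome 2 (20 of 142, 14.1%), chromosome 17 (13 of 85, 15.3%), chromosome 15 (15 of 88, 17%) and chromosome 1 (23 of 124, 18.5%) followed chromosome 11 at the low end. Chromosome 9 (14 of 32) and chromosome 14 (7 of 16) were at 43.8% each and chromosome 13 at 42.9% (18 of 42). Chromosomes 11, 15 and 17 together held 29.6% of the neighboured sites and 12.6% of the isolated ones. The order of the shares did not simply follow the number of sites: chromosome 19, with 29 sites, was at 20.7%, and chromosome 4, with 78, at 37.2%.

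Chromosomes 3 and X had the fewest sites. On chromosome 3, the 8 members had 19 to 43 tags (median 22.5) and intervals of 40 to 160 bp, and the median distance to the nearest site was 13.1 Mb. The site with the most tags there was at 88904911 to 88904971, with 43 tags over an input that matched 2 tags (20.5-fold). On chromosome X, the 8 members had 19 to 36 tags (median 24), and none reached 38, against 12.9% of all members and 16.5% of all listed sites. The 2 members with the most tags there were at 91787731 to 91787791 (36 tags, 34.3-fold) and 148637451 to 148637571 (34 tags, 32.4-fold). In tags and width these members lay within the range of members elsewhere, while the most remote one, on chromosome X, was farther from its nearest site than any member on another chromosome.

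By tags, isolated sites were somewhat weaker than neighboured ones and much like the sites in between. Members had a median of 23 tags (95% order-statistic interval 22 to 24), quartiles of 20 and 30 and a range of 19 to 89. Sites with a neighbour within 100 kb had a median of 25 (24 to 26), quartiles of 21 and 35 and a range of 19 to 94. Sites with a nearest neighbour at 100 to 500 kb had a median of 23 (22 to 24) and quartiles of 20 and 30, the same as the members. The median fold over input was 20.9 (quartiles 19 and 26.6) for members and 22.4 (19.4 and 28.6) for neighboured sites, where 18 was the limit for a call. The members held 23.6% of the tags at listed sites and 24.8% of the sites.

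Fewer isolated than neighboured sites passed each of 3 limits on tags. At least 38 tags were present at 43 of 333 members (12.9%, exact interval 9.51 to 17), against 16.5% of all listed sites, 131 of 636 neighboured sites (20.6%, 17.5 to 24) and 48 of 374 sites in between (12.8%, 9.62 to 16.7). A count of 38 is the least that passes the fold limit over 2 input tags. At least 25 tags were present at 41.4% of members, against 45.8% of all sites and 50.8% of neighboured sites. At least 50 tags were present at 15 members (4.50%, 2.54 to 7.32), against 6.18% of all sites and 7.70% (5.75 to 10.1) of neighboured sites. At the other end, 53 members (15.9%, 12.2 to 20.3) had 19 tags, the smallest count listed, against 14.1% of all sites and 12.3% (9.82 to 15.1) of neighboured sites. Of the 100 sites with the most tags, 17 were isolated, against 24.8% of all listed sites. Another 60 had a neighbour within 100 kb and 23 were in between, where the whole list of 1343 held 636 and 374. Of the top 10, 1 was isolated, a count too small to set apart from that 24.8%.

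**Figure D3:**
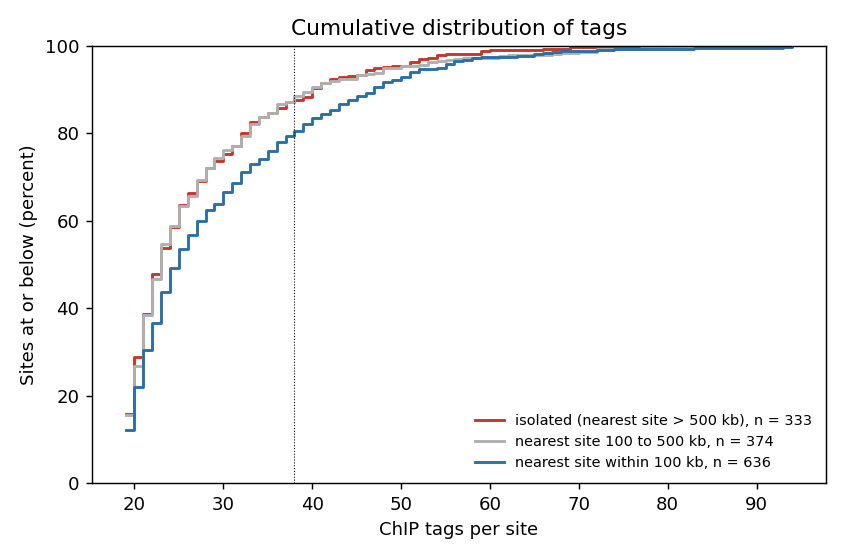
Cumulative percentage of sites (vertical) at or below each number of ChIP tags (horizontal) for isolated sites, sites in between and sites with a neighbour within 100 kb, with a dotted line at 38 tags. The isolated and in-between curves nearly coincide (medians of 23), and the curve of neighboured sites lies to their right (median 25).

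The difference in tags was also seen within most chromosomes. Within the 17 chromosomes that held at least 5 sites of each kind, the median tags of members were lower than those of neighboured sites on 13, equal on 1 and higher on 3, and the median of these differences was -1.5 tags (range -4.5 to 5). The share with at least 38 tags was lower among members on 13 of the 17 and higher on 4. When the neighboured sites were weighted to the chromosomes of the members, the share with at least 38 tags differed by -5.09 percentage points (13.2% of 310 members against 18.3%), against -7.68 over all chromosomes without weights. By median tags, members fell furthest below neighboured sites on chromosomes 11 and 9. On chromosome 11 the 14 members had a median of 22.5 and the 90 neighboured sites 27. On chromosome 9 the medians were again 22.5 and 27, but over 14 members and only 6 neighboured sites. There 2 members and none of the neighboured sites had at least 38 tags. Chromosome 1 had the largest difference of all, in the other direction, with a median of 29 among its 23 members against 24 among its 65 neighboured sites.

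Strong members were most frequent on 3 chromosomes. Chromosome 1 held 7 of the 43 members with at least 38 tags, chromosome 5 held 6 and chromosome 6 held 5. On these chromosomes 18 of the 75 members were strong (24%, exact interval 14.9 to 35.3), near the 66 of all 295 listed sites there (22.4%, 17.7 to 27.6). On the remaining chromosomes 25 of 258 members were strong (9.69%, 6.37 to 14), against 16.5% of all listed sites on any chromosome. Neighboured sites on chromosomes 1, 5 and 6 had a like share, 33 of 134 (24.6%, 17.6 to 32.8), and on the remaining chromosomes 98 of 502 (19.5%, 16.1 to 23.3). These 3 chromosomes were picked after their counts had been seen. Chromosome 11, which had the most sites and 25 strong sites among its 90 neighboured ones, had 1 strong member among 14. Its 45 in-between sites held 6 strong ones.

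Among the isolated sites themselves, the share of strong sites was lower where the nearest site was farther. At a distance of 500 kb to 1 Mb, 23 of 127 members (18.1%, exact interval 11.8 to 25.9) had at least 38 tags. The share was 10 of 83 (12.0%, 5.93 to 21) at 1 to 2 Mb, 8 of 85 (9.41%, 4.15 to 17.7) at 2 to 5 Mb and 2 of 38 (5.26%, 0.644 to 17.7) beyond 5 Mb. The intervals overlap and each contains 16.5%, the share over all listed sites, so none of the 4 groups was set apart from the list. The median tags of the 4 groups, in the same order, were 24, 22, 23 and 22.5, and showed no steady order. The members at 500 kb to 1 Mb had a share above that of sites at 250 to 500 kb (18 of 165, 10.9%, 6.59 to 16.7), so that the decline with distance was not unbroken over the whole list. Sites within 1 kb of another had the highest share, 28.2% (31 of 110, 20 to 37.6). Calls this close can count tags of 1 region of enrichment, and whether this raised their share was not tested. The share of members minus that of neighboured sites was -7.68 percentage points. It was -8.05 with sites within 1 kb joined and -6.10 against neighboured sites at 1 to 100 kb only.

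**Figure D4:**
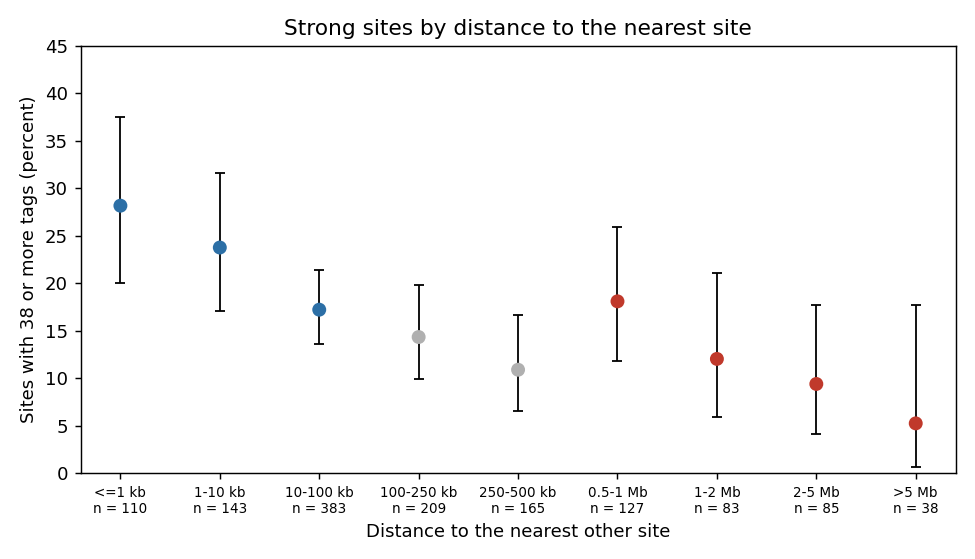
Percentage of sites with 38 or more ChIP tags (points, with exact 95% binomial intervals) by distance to the nearest other site, for neighboured (blue), in-between (grey) and isolated (red) sites. The share falls from 28.2% within 1 kb to 10.9% at 250 to 500 kb, is 18.1% at 0.5 to 1 Mb and falls again to 5.26% beyond 5 Mb.

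The member with the most tags was on chromosome 5 at 28071451 to 28071811, with 89 tags (exact Poisson interval 71.5 to 110) and 84.7-fold over an input that matched 1 tag. Its neighbours lay 532 kb away on one side and 3.69 Mb on the other. The second, on chromosome 1 at 94120911 to 94120971, had 69 tags (53.7 to 87.3) over an input of 3 tags, so that its fold was only 21.9 (exact interval 7.18 to 109). The third, on chromosome 2 at 159457451 to 159457511, had 66 tags (51.0 to 84) and a fold of 62.8. A high tag count therefore did not always bring a high fold, and the intervals of these 3 tag counts overlap in part.

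The rest of the 10 members with the most tags had 53 to 60 tags, and an input that matched 1 tag. Of these 7 sites, 3 were on chromosome 6, at 114803111 to 114803291 (60 tags), 54168971 to 54169011 (55 tags) and 87154351 to 87154391 (53 tags). Chromosome 1 had 2 of them, at 181515671 to 181516111 (59 tags) and 39396771 to 39396811 (54 tags). The last 2 were on chromosome 10 at 98378451 to 98378491 (59 tags) and on chromosome 14 at 120676791 to 120676851 (54 tags), the last listed site of that chromosome. The site on chromosome 10 was the most remote on its farther side, with 2.19 Mb and 12.9 Mb to its neighbours. Their Poisson intervals overlap throughout, so these 7 were not ordered by strength.

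Input counts can be read back from the fold: the tags of a site, scaled by 0.952 for the sizes of the libraries, are divided by its fold. The value was 1 within 0.01 at 306 of 333 members (91.9%, exact interval 88.4 to 94.6), against 88.1% of all sites and 85.4% (82.4 to 88.0) of neighboured sites. It was 2 at 10 members (3.00%, against 4.91% of all sites), 3 at 1 member (0.300%, against 0.670% of all sites with 3 or more) and not whole at 16 (4.80%, against 6.33%). An input of 2 can pass the fold limit only from 38 tags, so these shares partly restate the tags. Among sites with at least 38 tags, the implied input was 1 at 29 of 43 members (67.4%, 51.5 to 80.9) and at 73 of 131 neighboured sites (55.7%, 46.8 to 64.4), and 2 at 10 members (23.3%, 11.8 to 38.6) and 43 neighboured sites (32.8%, 24.9 to 41.6). The intervals overlap, and a difference in input between strong isolated and strong neighboured sites was not tested. Over all listed sites with at least 38 tags, the share was 59.5% for an input of 1 and 29.7% for 2. These shares lie inside the members' intervals, so strong members were not set apart from the list. Nothing in the header says whether 1 stands for a single input tag or for none.

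Each value of the fold among members had a single p from the caller, so that the p-values restate the folds. Members had a median p of 6.1e-05 and neighboured sites 4.5e-05, on a list whose largest value was 8.7e-05. A p of at most 1e-05 was listed for 37 members (11.1%, exact interval 7.94 to 15), against 13.1% of all sites and 15.6% (12.8 to 18.6) of neighboured sites. The lowest p among members, 1e-07, belonged to the chromosome 5 site with 89 tags.

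Interval widths barely differed with isolation. The called interval is the stretch in which the caller places the site, and its ends fell on a 20 bp grid at all 1343 sites, as wide as the scanning window. Members had a median width of 60 bp with quartiles of 40 and 140 bp, and so did neighboured sites and the sites in between. The range was 40 to 440 bp for members and 40 to 580 bp for neighboured sites. A 40 bp interval was called at 114 members (34.2%, exact interval 29.1 to 39.6), against 33.2% of all sites and 33.0% (29.4 to 36.8) of neighboured sites. Intervals of 60 bp made up 22.8% of members, against 21.4% of all sites. Intervals of at least 100 bp made up 39.3% (34.1 to 44.8), against 40.7% of all sites and 40.7% (36.9 to 44.7) of neighboured sites, and those of at least 300 bp 3.30%, against 4.24% of all sites. On 6 of the 17 chromosomes with at least 5 sites of each kind the median width was equal, on 5 it was lower among members and on 6 higher.

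**Figure D5:**
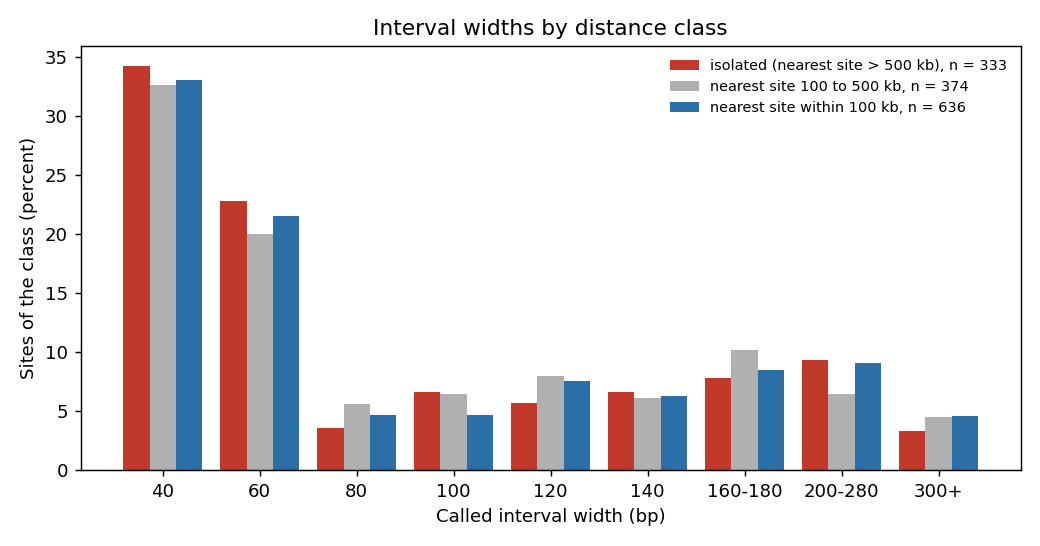
Percentage of sites of each class (bars from 0) by called interval width in bp, with wider intervals grouped, for isolated, in-between and neighboured sites. The profiles are alike, with 34.2% of isolated and 33.0% of neighboured sites at 40 bp.

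Within the members, wide intervals were called more often at 500 kb to 1 Mb than farther out, with no such trend at shorter distances. Intervals of at least 100 bp were called at 62 of 127 members with a nearest site at 500 kb to 1 Mb (48.8%, exact interval 39.9 to 57.8) and at 69 of 206 members farther out (33.5%, 27.1 to 40.4). The share over all listed sites, 40.7%, lay inside the first of these intervals and just above the second. In the 5 distance groups below 500 kb the share ran from 38.5% to 42.4%. By tags, wide intervals were called at 37.5% of the 96 members with 19 or 20 tags, 30.3% of the 99 with 21 to 24, 45.3% of the 95 with 25 to 37 and 51.2% (35.5 to 66.7) of the 43 with at least 38. Among neighboured sites the shares, in the same order, were 26.4%, 49.1%, 45.8% and 37.4% (29.1 to 46.3), so that neither kind showed a steady rise. Spearman's rho between tags and width was 0.07 over the 333 members and 0.08 over the 636 neighboured sites. The rho is across sites of 1 library.

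The widest members included strong and weak sites. Of the 11 members at least 300 bp wide, 5 had at least 38 tags (45.5%, exact interval 16.7 to 76.6). The share was 12.9% over all members and 16.5% over all listed sites. The site on chromosome 1 at 181515671 to 181516111 and one on chromosome 9 at 40538791 to 40539231 were both 440 bp wide, with 59 and 27 tags, the second 7.92 Mb from its nearest site. They were followed by intervals of 380 bp on chromosome 9 at 121669811 to 121670191 (44 tags, the last listed site of that chromosome) and on chromosome X at 10569871 to 10570251 (30 tags, the first listed site of that chromosome). Next, at 360 bp each, came the chromosome 5 site with 89 tags and a site on chromosome 1 at 87798531 to 87798891 with 35 tags, which tied in width. Among the 10 members with the most tags, 4 had intervals of 40 bp and 3 of 60 bp. Over all members these widths made up 34.2% and 22.8%, and over all listed sites 33.2% and 21.4%.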

How the data were processed

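Formaldehyde-fixed chromatin was sonicated and precipitated with a FLAG affinity gel, per the labels' protocols. Bowtie and mm9 are named in the submitters' processing notes, with no alignment settings. Sites were called with SISSRs 1.4 on 1 ChIP library against 1 input library, per the file headers, with a p of 0.0001, an E-value of 10, a 20 bp window, 210 bp fragments, 1 tag kept per position, and limits of 17 tags and 18-fold. The deposited table gives, as the authors' values, a count of ChIP tags, a fold over input and a p-value for each site, with interval positions in mm9. Those positions are printed as deposited, since no source says whether counting starts at 0 or 1.

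Centres, distances and classes were computed with pandas 2.3.3 and numpy 2.4.6 in Python 3.11.15, intervals with scipy 1.17.1 and figures with matplotlib 3.10.9. Counts have exact Poisson, shares exact Clopper-Pearson and medians order-statistic 95% intervals. A fold's interval was derived from an exact binomial interval for ChIP tags among ChIP and implied input tags together. The classification was checked on simulated positions. The members, lists and alternatives were chosen with earlier results of these data known, and the distance groups, tag limits and width groups after the values were seen. Named were the 10 members with the most tags, the 5 most remote, the 5 widest, the 3 sites on each side of the limit, and up to 3 with the most tags on chromosomes with at most 10 sites. The comparison with genes and motifs that had been planned was not run, because the reference tables are of GRCm38.p6 and positions were not converted.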

Additional observations from a re-analysis of the deposited data

How the results depend on the processing

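Of 54 alternatives over 7 results, 46 stayed within 1.5 times of the main count or inside the interval of the main value. Among them was the number of isolated sites at a limit of 250 kb, 498, which came close to the bound of 1.5 times. The other 8 follow. The number of isolated sites fell from 333 to 206 at a limit of 1 Mb and to 116 with the rule applied to sites of p at most 1e-05 alone. Among those 176 sites the classes were made anew, which gave 116 isolated and only 29 neighboured sites. Only 37 of the 333 members have such a p, so most of the 116 are not members. Their median width was 40 bp below that of the 29 neighboured sites (a difference of -40). At least 38 tags were present at 78.4% of the 116 isolated sites and 86.2% of the 29 neighboured ones. A 40 bp interval was called at 41.4% and 20.7% of them. With classes made anew among sites whose fold reached the median, 22.4% of the 263 isolated and 28.4% of the 282 neighboured sites had at least 38 tags. Both selections raise tags by construction. The median isolated share of a chromosome, 29.0%, was 41.4% at 250 kb and 16.8% at 1 Mb. The alternatives for the difference in the share of strong sites were chosen after seeing the data. At the limit of 38 tags they ranged from -10.9 to -5.09 percentage points, around -7.68. With the limit moved to 25 or 50 tags the difference was -9.34 or -3.20. No paired analysis was possible because the list rests on a single ChIP library and a single input. The implied input was 1 at 91.9% of members, so at those sites the fold follows the tags. The list holds no site under 19 tags.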
